A study of Mus musculus with 12 samples.

Results

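Lyz2, Cd68, Csf1r, C1qa, C1qb, C1qc, Adgre1, Itgam, Cx3cr1 and Tyrobp are 10 genes commonly used as markers of macrophages and monocytes. They were selected by symbol from a deposited table of 16942 genes measured by RNA sequencing of mouse small intestine, and all 10 were in the table. The choice was made with earlier results of these data known. Tyrobp, Lyz2, Cd68, Csf1r and Itgam passed the filter on low counts and were tested between groups. The other 5, C1qa, C1qb, C1qc, Cx3cr1 and Adgre1, did not pass it and are described by their read counts.

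The mice were of the outbred ICR strain and the 12 libraries form 4 groups of 3. AOS0 libraries came from mice without busulfan at AOS level 0, AOS10 from mice without busulfan at AOS level 10, B+A0 from mice with busulfan at AOS level 0 and B+A10 from mice with busulfan at AOS level 10. The B of the group names was read as busulfan because the study's design text names busulfan and AOS as its treatments. Busulfan is an alkylating drug that depletes dividing cells of the bone marrow, while the labels do not expand AOS or give its unit, its route or the age of the mice. Nor do they state that replicate libraries are separate animals, so a p-value here measures only the spread between these libraries. Between 13560232 and 16818245 reads were counted per library. Levels of 1 gene across libraries are given as CPM, its reads as a share of the library after scaling for composition, and levels of different genes are compared in FPKM, which also divides by gene length. An adjusted p is a p-value corrected for all genes tested, with a threshold of 0.05, and a log2 fold change of 1 is a doubling.

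Macrophages engulf and digest microbes and dying cells, and in the intestine most of them are replaced throughout life by monocytes that arrive from the bone marrow. Csf1r is the receptor for the growth factor that keeps these cells alive, Cx3cr1 is a chemokine receptor of monocytes and of resident intestinal macrophages, and Adgre1 encodes the F4/80 surface antigen. C1qa, C1qb and C1qc encode the chains of C1q, the recognition part of the classical complement pathway. Cd68 is a glycoprotein of the lysosome, Lyz2 is a lysozyme that breaks bacterial cell walls, Itgam is the alpha chain of an adhesion and complement receptor, and Tyrobp is a signalling adaptor. Of these, Tyrobp and Itgam are shared with natural killer (NK) cells and neutrophils, and Lyz2 with neutrophils.

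Lyz2 has a near-identical neighbour, Lyz1, which is the lysozyme of Paneth cells, the antimicrobial cells of the small intestinal crypt. Their coding sequences are both 447 bases long and 95.1% identical, with 22 differences and a longest identical stretch of 118 bases. The stretch below, from exon 2, was chosen as the 150 coding bases within 1 exon that hold the most differences. Reads within it that cover none of the capital letters cannot be assigned to 1 of the genes. It covers 150 bases of the coding sequence on the minus strand of chromosome 10 (GRCm38, the mm10 assembly, GENCODE transcripts), written 5′ to 3′, with the 6 bases that differ in capitals. Lyz2 lies at chr10:117280656-117280805 and Lyz1 at chr10:117291044-117291193.
Lyz2: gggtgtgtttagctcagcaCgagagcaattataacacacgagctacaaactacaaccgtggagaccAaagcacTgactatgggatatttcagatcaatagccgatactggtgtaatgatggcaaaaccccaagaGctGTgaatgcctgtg
Lyz1: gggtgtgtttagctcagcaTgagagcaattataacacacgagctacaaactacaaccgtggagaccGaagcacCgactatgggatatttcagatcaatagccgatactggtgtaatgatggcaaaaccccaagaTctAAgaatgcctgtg

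In windows of 50 bases along the Lyz2 transcript, 195 of 1267 (15.4%) also occurred in Lyz1, against 24 of 1217 windows of 100 bases (1.97%) and 0 of 1167 windows of 150 bases. The read length is not given in the sources used here. Lyz1 had a median of 1987 FPKM over the 12 libraries and Lyz2 a median of 1.28 FPKM. Lyz1 held 372 to 3729 times as many counts as Lyz2 in the same library, so that Lyz2 made up 0.0268% to 0.268% of the counts of both genes. A small share of misassigned Lyz1 reads would therefore be as large as the whole Lyz2 count, and the Lyz2 values are reported as uncertain; how many of its reads belong to Lyz1 was not tested.

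The level per length differed widely among the 10 genes, and most of them were close to the limit of detection. Itgam was the highest, with a median of 5.66 FPKM and a range of 4.88 to 7.80 over the 12 libraries. Tyrobp followed with a median of 3.41 FPKM (0.81 to 6.69), then Lyz2 with 1.28 FPKM (0.77 to 3.90) and Cd68 with 1.06 FPKM (0.41 to 1.52). The C1q chains lay lower, C1qa at a median of 0.26 FPKM, C1qb at 0.20 FPKM and C1qc at 0.15 FPKM, and their ranges overlapped. Csf1r had a median of 0.085 FPKM and Cx3cr1 of 0.045 FPKM. Adgre1 had a median of 0 FPKM. Each gene's range over the libraries overlapped that of its neighbour in this order, while the ranges of Itgam and Lyz2 did not overlap. By mean FPKM, Itgam was at percentile 54.4 of all 16942 genes, Tyrobp at 47.5 and Adgre1 at 9.32.

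**Figure D1:**
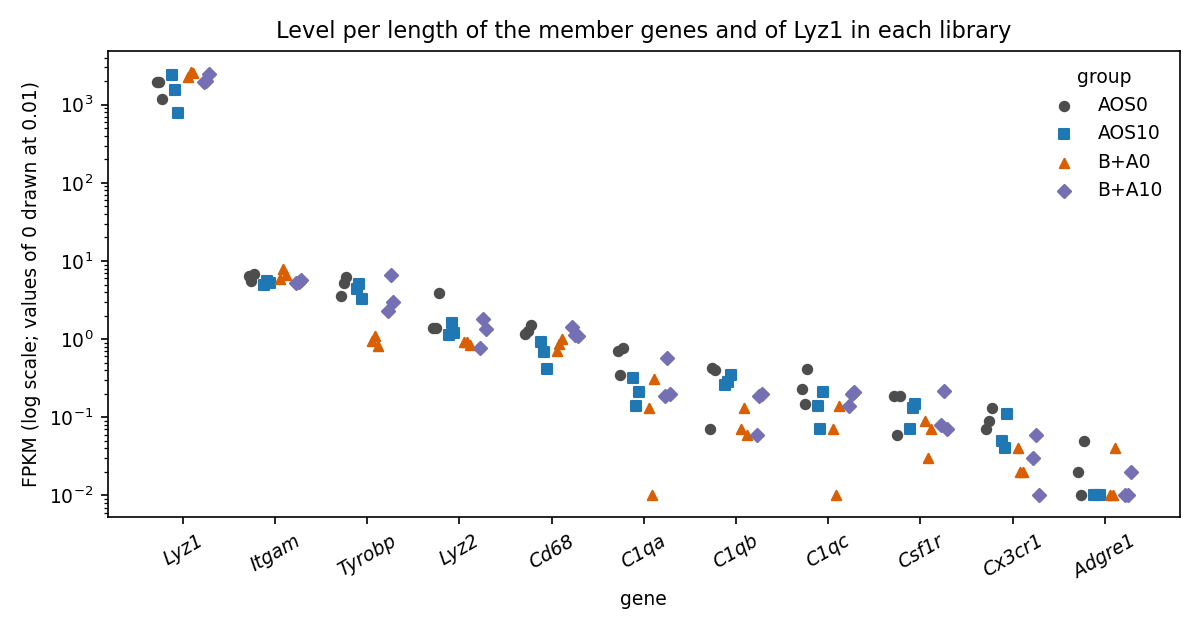
Level per length (FPKM, log scale) of the 10 genes and of Lyz1 in each of the 12 libraries, with 1 point per library, colour and shape for the group, and values of 0 drawn at 0.01. Lyz1 lies at 782.17 to 2629.38 FPKM, Itgam at 4.88 to 7.80 FPKM, and Adgre1 at 0 to 0.05 FPKM.

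Adgre1, the classical surface marker of mouse macrophages, had 6 reads in the 12 libraries together and none in 8 of them. A count of 0 allows up to 3 counts, or 0.178 to 0.221 CPM depending on the library, as counting error alone. Csf1r had 74 reads in all and Cx3cr1 had 34. The macrophage identity of the signal thus rested on few reads, whereas the list of 6 enterocyte genes summed to between 4924 and 10151 CPM in these libraries. The summed level of 5 smooth muscle genes was 0.0606 to 3.21 CPM, so transcripts of the muscle layer, which has its own macrophages, were nearly absent.

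Tyrobp was the 1 gene of the 10 that differed past the threshold in any comparison. B+A0 and AOS0 differ by busulfan, at AOS level 0 in both. The adaptor encoded by Tyrobp passes on signals from activating receptors that have no signalling tail of their own. It lies on chromosome 7 (gene ID 22177, GRCm38, 30413782 to 30417582, plus strand). Its read counts were 23, 34 and 37 in AOS0 replicates 1 to 3 and 7, 8 and 6 in the B+A0 replicates. They were 31, 34 and 22 in AOS10 and 17, 49 and 21 in B+A10. The 3 B+A0 libraries were thus the lowest of all 12, with no overlap with any other group. B+A0 lay below AOS0 without overlap in 14.6% of all genes tested. The share of genes in which B+A0 lay below all other groups was not counted. In CPM the means were 2.15 ± 0.627 in AOS0, 1.86 ± 0.369 in AOS10, 0.427 ± 0.0575 in B+A0 and 1.79 ± 1.11 in B+A10 (SD, n = 3). Tyrobp fell by 2.31 on the log2 scale in B+A0 against AOS0 (SE 0.46, 95% interval -3.31 to -1.34, adjusted p = 0.0235, edgeR quasi-likelihood test over all genes tested).

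Of the 5 tested genes, 1 fell and none rose in that comparison. Over all 12329 genes tested, 239 (1.94%) fell and 210 (1.70%) rose. With no filter on low counts, where all 10 genes entered the test, Tyrobp was again the 1 that passed (1.41% of all genes fell). The call did not hold without replicate 1 or 3 of AOS0 (adjusted p = 0.0528 and 0.0803, edgeR) or replicate 2 or 3 of B+A0 (0.0654 and 0.117), while the log2 fold change lay between -2.51 and -2.10 when any 1 of the 12 libraries was left out. In bulk tissue, fewer cells of a type and less RNA per cell cannot be told apart, which applies to every level given here.

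**Figure D2:**
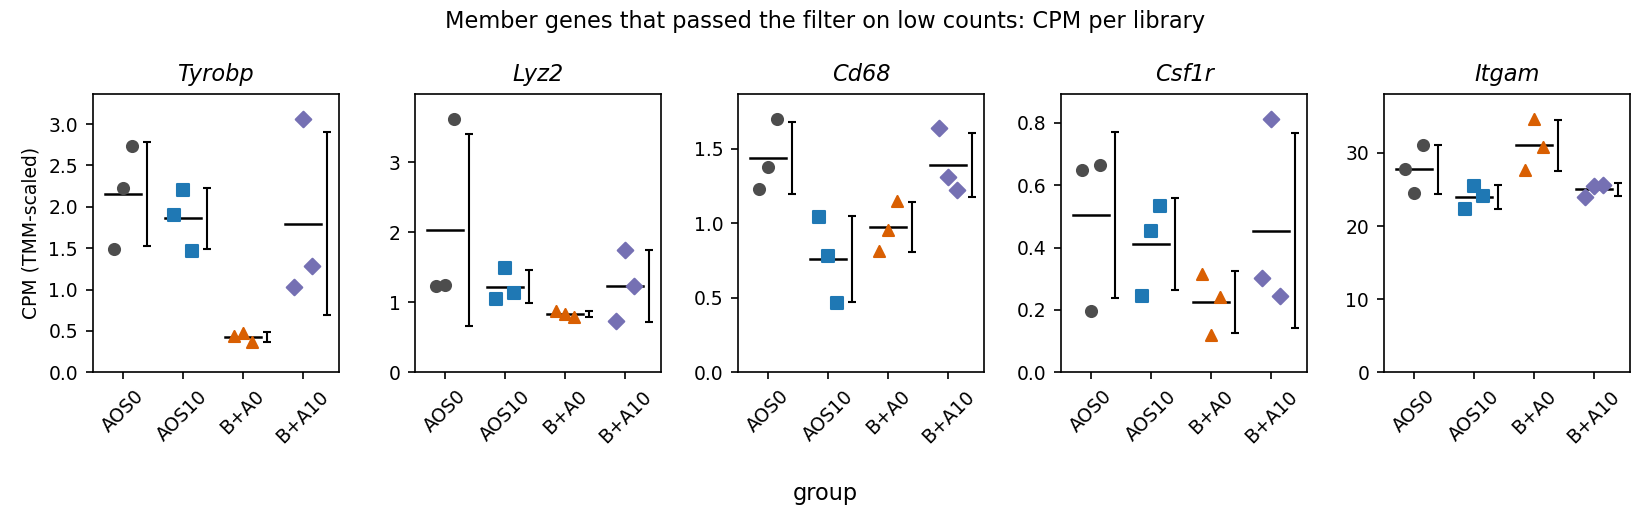
CPM per library of the 5 tested genes by group, with 1 point per library, a horizontal line at the group mean and a bar of 1 SD on either side of it; each panel has its own scale starting at 0. The Tyrobp points of B+A0 lie between 0.364 and 0.477 CPM, below every other library, and Itgam stays between 22.3 and 34.7 CPM in all 12.

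Lyz2 (gene ID 17105, GRCm38 chromosome 10, 117277541 to 117282272) was lower in B+A0 than in AOS0 without passing the threshold. Its counts, which the authors' counting could give in fractions, were 19.12, 18.96 and 49 in AOS0, 17, 23 and 17 in AOS10, 14.17, 14 and 13.01 in B+A0, and 11.98, 28 and 20 in B+A10. AOS0 replicate 3 stood well above the other libraries of its group, and the B+A0 libraries lay below all AOS0 libraries, as they did in 14.6% of all tested genes. The log2 fold change in B+A0 against AOS0 was -1.26 (SE 0.45, 95% interval -2.25 to -0.30, adjusted p = 0.123, edgeR). Without AOS0 replicate 3 it was -0.57. Lyz1 went the other way, from 1894 ± 473 CPM in AOS0 to 2842 ± 151 CPM in B+A0 (SD, n = 3), a difference that did not pass either (0.59 on the log2 scale, adjusted p = 0.271, edgeR). With the counts of Lyz1 and Lyz2 summed, the log2 fold change was 0.58, which is the Lyz1 value and carries no information on Lyz2.

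Cd68 separated several pairs of groups without passing the threshold in any comparison. It lies on chromosome 11 (gene ID 12514, GRCm38, 69664213 to 69666170, minus strand). Its counts were 19, 21 and 23 in AOS0, 17, 12 and 7 in AOS10, 13, 16 and 19 in B+A0, and 27, 21 and 20 in B+A10. In CPM the means were 1.44 ± 0.241, 0.763 ± 0.289, 0.974 ± 0.169 and 1.39 ± 0.216 (SD, n = 3) in the same order. All AOS10 libraries and all B+A0 libraries lay below all AOS0 libraries in CPM, although the raw count of 19 occurred in both AOS0 and B+A0, and all B+A10 libraries lay above those of AOS10 and B+A0. The log2 fold change was -0.55 in B+A0 against AOS0 (SE 0.31, adjusted p = 0.316, edgeR) and -0.89 in AOS10 against AOS0 (SE 0.32, adjusted p = 0.659, edgeR). In B+A10 it was 0.51 against B+A0 (SE 0.30, adjusted p = 0.605, edgeR) and 0.85 against AOS10 (SE 0.32, adjusted p = 0.365, edgeR). Groups did not overlap in the same direction in 14.6% of all tested genes for B+A0 below AOS0, 9.67% for AOS10 below AOS0, 4.83% for B+A10 above B+A0 and 7.97% for B+A10 above AOS10.

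Csf1r, the receptor on which most macrophages depend (gene ID 12978, GRCm38 chromosome 18, 61105572 to 61131139, plus strand), had counts of 10, 3 and 9 in AOS0, 4, 7 and 8 in AOS10, 5, 2 and 4 in B+A0, and 5, 13 and 4 in B+A10. Every pair of groups overlapped. The log2 fold change in B+A0 against AOS0 was -1.13 (SE 0.65, 95% interval -2.57 to 0.25, adjusted p = 0.323, edgeR), an interval too wide at this depth to tell a large decrease from none.

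Itgam, the alpha chain of the CR3 integrin, had the most reads of the 10 genes, 5095 over the 12 libraries, and was not lower in B+A0. It lies on chromosome 7 (gene ID 16409, GRCm38, 128062640 to 128118491, plus strand). Its counts were 429, 373 and 421 in AOS0, 363, 394 and 362 in AOS10, 442, 582 and 508 in B+A0, and 396, 408 and 417 in B+A10. B+A0 held the highest library and overlapped AOS0, and all B+A10 libraries lay below all B+A0 libraries in CPM. The log2 fold change was 0.16 in B+A0 against AOS0 (SE 0.11, 95% interval -0.08 to 0.40, adjusted p = 0.428, edgeR) and -0.31 in B+A10 against B+A0 (SE 0.11, 95% interval -0.55 to -0.07, adjusted p = 0.398, edgeR). B+A10 lay below B+A0 without overlap in 5.41% of all tested genes.

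The Itgam protein reaches the cell surface only paired with the beta chain encoded by Itgb2. Itgb2 counts were 96, 66 and 86 in AOS0, 83, 57 and 74 in AOS10, 41, 26 and 23 in B+A0, and 47, 102 and 46 in B+A10. Its 3 B+A0 libraries were the lowest of the 12 in CPM, an order whose share over all genes was not counted. B+A0 lay below AOS0 without overlap in 14.6% of all genes tested. Itgb2 fell by 1.61 on the log2 scale in B+A0 against AOS0 (SE 0.35, adjusted p = 0.0291, edgeR). That call did not hold without replicate 1 or 3 of AOS0 (adjusted p = 0.0952 and 0.0974, edgeR) or replicate 2 or 3 of B+A0 (0.0915 and 0.143), nor with the replicate number as a block (0.0549). The 95% intervals of the Itgam and Itgb2 fold changes did not overlap (-0.08 to 0.40 and -2.37 to -0.87), but the difference between the genes was not tested. Per length, Itgam stood at a median of 5.66 FPKM and Itgb2 at 1.48 FPKM, and their ranges did not overlap. In the GENCODE annotation another protein-coding gene, Gm49368, overlaps Itgam on the same strand over 55809 bases, so reads of the 2 genes could be mixed; the part this plays in the Itgam level was not tested.

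The complement chains, whose genes lie side by side on the minus strand of chromosome 4 (GRCm38, C1qb from 136880126, C1qc from 136889801 and C1qa from 136895916), had at most 10 reads in a library. C1qa had 10, 5 and 10 reads in AOS0, 5, 2 and 3 in AOS10, 2, 0 and 5 in B+A0, and 3, 9 and 3 in B+A10. C1qb had 1, 6 and 5 reads in AOS0, 4, 4 and 5 in AOS10, 1, 2 and 1 in B+A0, and 1, 3 and 3 in B+A10. C1qc had 3, 2 and 5 reads in AOS0, 2, 1 and 3 in AOS10, 1, 0 and 2 in B+A0, and 2, 3 and 3 in B+A10. The 3 chains form 1 protein, and their summed reads ranged from 13 to 20 per library in AOS0, 7 to 11 in AOS10, 2 to 8 in B+A0 and 6 to 15 in B+A10. The sums of AOS0 thus lay above those of AOS10 and B+A0 and overlapped those of B+A10, with no test because none of the chains passed the filter. Of all tested genes, 9.67% lay lower in AOS10 than in AOS0 without overlap, and 14.6% lay lower in B+A0. Of the single chains in CPM, C1qb overlapped AOS0 in both comparisons and C1qc did so in AOS10.

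Cx3cr1 (gene ID 13051, GRCm38 chromosome 9, 120048683 to 120068296) had 3, 5 and 6 reads in AOS0, 3, 2 and 6 in AOS10, 2, 1 and 1 in B+A0, and 2, 3 and 0 in B+A10. In CPM its B+A0 and its B+A10 libraries lay below those of AOS0, which 14.6% and 8.60% of all tested genes also showed. Adgre1 (gene ID 13733, GRCm38 chromosome 17, 57358581 to 57483529) had 1, 0 and 2 reads in AOS0, none in AOS10, 2 reads in B+A0 replicate 3 and 1 read in B+A10 replicate 3. No order of the groups can be read from Adgre1. With no filter on low counts, where these 5 genes entered the test, none of them passed in any comparison by edgeR.

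**Figure D3:**
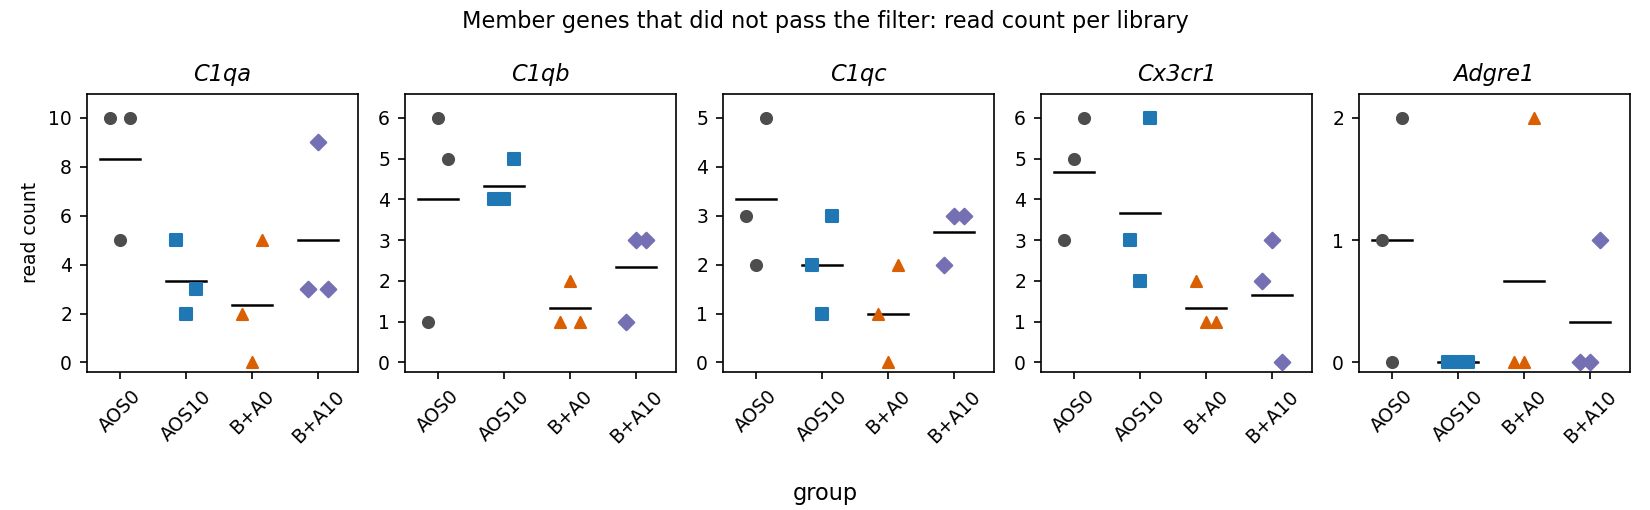
Read counts per library of the 5 genes that did not pass the filter on low counts, by group, with 1 point per library and a horizontal line at the group mean; each panel has its own scale. No library held more than 10 reads of any of them, and 8 of 12 held no Adgre1 read.

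AOS10 and AOS0 differ by the AOS level alone. None of the 5 tested genes passed by edgeR, DESeq2 or limma, and 1, Cd68, was under 0.05 without adjustment. By edgeR 0 of 12329 genes passed (0%), with 768 (6.23%) under 0.05 without adjustment, against 0.463% by DESeq2 and 0% by limma. The log2 fold change of Tyrobp was -0.20 (SE 0.38, 95% interval -1.02 to 0.62). That of Lyz2 was -0.71 (SE 0.43, 95% interval -1.65 to 0.22), and -0.021 without AOS0 replicate 3. With any 1 of the 12 libraries left out, Tyrobp lay between -0.41 and -0.00062 and Lyz2 between -0.98 and -0.021.

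B+A10 and B+A0 share busulfan and differ by the AOS level. Every B+A10 library lay above every B+A0 library in 4.83% of all genes tested. Tyrobp was among them, with 17, 49 and 21 reads in B+A10 and 7, 8 and 6 reads in B+A0. Its log2 fold change was 2.05 (SE 0.46, 95% interval 1.07 to 3.06, unadjusted p = 0.000622, adjusted p = 0.255, edgeR), which did not pass. DESeq2 gave 2.08 with an adjusted p of 0.0243, so that the call depended on the tool. Without B+A10 replicate 2, the library with the highest Tyrobp level, the log2 fold change was 1.43 (adjusted p = 0.597, edgeR). None of the 5 genes passed by edgeR or limma, 1 passed by DESeq2, and 2, Tyrobp and Itgam, were under 0.05 by edgeR without adjustment. Over all genes 0 of 12329 passed by edgeR (0%) or limma (0%), 1210 (9.81%) were under 0.05 by edgeR without adjustment, and DESeq2 called 76 of 12634 (0.602%).

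The remaining comparisons set B+A10 against the groups without busulfan. Against AOS10, where both groups had AOS at level 10, 0.162% of all genes passed by edgeR, 1.18% by DESeq2 and 0.0162% by limma. None of the 5 genes did, and 1, Cd68, was under 0.05 by edgeR without adjustment, as were 10.2% of all genes. The log2 fold change of Tyrobp there was -0.06 (SE 0.38, 95% interval -0.88 to 0.77). Against AOS0, 0.957% of all genes passed by edgeR, 3.83% by DESeq2 and 0.795% by limma. None of the 5 genes did, and none was under 0.05 by edgeR without adjustment, against 15.7% of all genes. Tyrobp had a log2 fold change of -0.26 (SE 0.38, 95% interval -1.08 to 0.56) against AOS0. These intervals include decreases of nearly 1 on the log2 scale, so they do not show that B+A10 matched the untreated level.

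The interaction asked whether the busulfan difference changed with the AOS level. For Tyrobp it was 2.25 on the log2 scale (SE 0.60, unadjusted p = 0.00231, adjusted p = 0.499, edgeR). For Cd68 it was 1.40 (SE 0.44, unadjusted p = 0.00705, adjusted p = 0.522, edgeR). Lyz2 and Csf1r both had 1.27 (adjusted p = 0.726 and 0.780, edgeR), which was 0.59 for Lyz2 without AOS0 replicate 3 and 0.58 for Csf1r without B+A10 replicate 2, and Itgam had -0.10 (adjusted p = 0.906, edgeR). None of the 5 passed by edgeR, DESeq2 or limma. Over all genes 0 of 12329 passed by edgeR (0%) or limma (0%), 844 (6.85%) were under 0.05 by edgeR without adjustment, and DESeq2 called 16 of 13288 (0.120%).

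**Figure D4:**
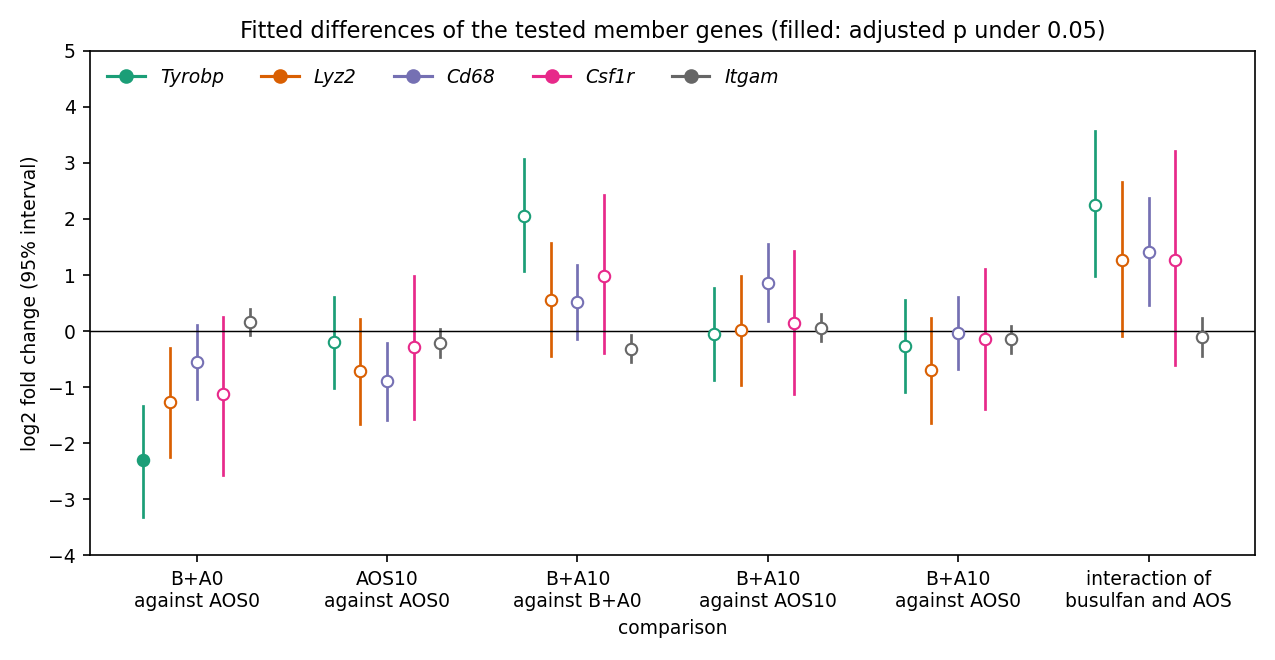
Log2 fold changes of the 5 tested genes in the 6 comparisons, with vertical lines for the 95% interval and a filled point where the adjusted p was under 0.05 (edgeR). The single filled point is Tyrobp in B+A0 against AOS0 at -2.31, and Itgam has the narrowest interval in each comparison.

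Of 97 genes in 8 lists of macrophage biology, 92 were in the table and 44 had enough counts to be tested. In B+A0 against AOS0, 2 of the 44 fell and none rose, beside 1.94% and 1.70% of all genes tested. One was Itgb2, 1 of 6 tested ligands and partners, described above. Which cells the Itgb2 reads came from was not tested. The other was Ncf1, a cytosolic subunit of the phagocyte oxidase and 1 of 10 tested genes of lysosomal proteases and the oxidase. Ncf1 counts were 87, 45 and 61 in AOS0 and 28, 18 and 16 in B+A0, without overlap. B+A0 lay below AOS0 in this way in 14.6% of all genes tested. Ncf1 fell by 1.78 on the log2 scale (SE 0.34, adjusted p = 0.0218, edgeR), a call that did not hold without replicate 1 or 3 of AOS0 (adjusted p = 0.0812 and 0.0711, edgeR) or replicate 2 or 3 of B+A0 (0.0695 and 0.113). The median log2 fold change of the 44 was -0.14, against -0.0072 for all genes tested. It was -1.13 for the 5 tested marker genes, which is the value of Csf1r, the middle gene of the 5. Csf1r had 2 to 13 reads per library, and its interval, given above, ran from -2.57 to 0.25. This marker median leaves out the 5 marker genes with the fewest reads. It was -0.57 without AOS0 replicate 3 and -0.31 by limma on log2(FPKM + 1). The marker median therefore does not show a shift of the marker genes as a set.

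The receptor transcripts were scarce, and of the 3 ligands only Cx3cl1 stood far above the marker genes. Csf1 and Il34 lay below the median of Cd68 (1.06 FPKM) in AOS0 and B+A0. Cx3cl1, the membrane-bound ligand of Cx3cr1, stood at 35.1 ± 4.49 FPKM in AOS0 and 38.7 ± 8.66 FPKM in B+A0 (SD, n = 3). Csf1, a ligand of Csf1r, stood at 0.437 ± 0.0666 FPKM and 0.413 ± 0.127 FPKM, and Il34, the other ligand of that receptor, at 0.533 ± 0.0945 FPKM and 0.433 ± 0.212 FPKM. None of the 3 ligands passed in any comparison. These ligands, and Spi1, Ly6c2, Ccr2, Mrc1, Cd163, Timd4, Fcgr1, Fcer1g, Mpo and Ngp in later paragraphs, were singled out after their values were seen.

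Among 9 tested myeloid transcription factors and growth factor receptors none passed by edgeR. Csf2rb and Csf2rb2, closely related receptor chains between which reads could be split, had log2 fold changes of -1.96 (SE 0.58, adjusted p = 0.0718, edgeR) and -1.93 (SE 0.59, adjusted p = 0.0770, edgeR). Spi1, the master transcription factor of the myeloid lineage, was not tested and had 21 reads over the AOS0 libraries, 23 in AOS10, 5 in B+A0 and 7 in B+A10. Of 12 monocyte recruitment genes 2 were tested and neither passed. These were Spn, a sialoglycoprotein of leukocytes (log2 fold change -1.55, SE 0.42, adjusted p = 0.0604, edgeR), and Plac8 (log2 fold change -0.16, SE 0.11, adjusted p = 0.431, edgeR). Plac8 stood at 2556 ± 69.4 FPKM in AOS0 and 2211 ± 250 FPKM in B+A0 (SD, n = 3), against a median of 5.66 FPKM for Itgam. Which cells the Plac8 reads came from was not tested. Ly6c2, a surface antigen of inflammatory monocytes, had 23, 17, 3 and 6 reads in AOS0, AOS10, B+A0 and B+A10. Ccr2, the receptor that draws monocytes out of the bone marrow, had 13, 9, 4 and 4.

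Of 14 genes of tissue-resident macrophages 2 were tested and neither passed. Stab1, a scavenger receptor, differed by -0.55 on the log2 scale (SE 0.39, adjusted p = 0.441, edgeR) and Lyve1, a hyaluronan receptor shared with lymphatic vessels, by -0.34 (SE 0.19, adjusted p = 0.324, edgeR). Mrc1, the mannose receptor, had 16 reads in AOS0, 23 in AOS10, 20 in B+A0 and 16 in B+A10. Cd163 and Timd4, a haemoglobin scavenger receptor and a receptor for dying cells, had 1 read each in the 12 libraries together.

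Of the receptors for antibodies, microbial patterns and dying cells, 16 of 19 listed genes were in the table and 5 were tested. None passed in B+A0 against AOS0. Fcer1g, an adaptor related in function to Tyrobp, had 16 to 31 reads per library in AOS0 and 3 to 14 in B+A0, and did not pass. In 14.6% of all genes tested, B+A0 lay below AOS0 without overlap in CPM. Fcgr1, the high-affinity antibody receptor of macrophages, had 4 reads in all. Mertk, a receptor for dying cells, was higher in B+A10 than in AOS0. Its level was 47.0 ± 7.10 CPM in AOS0, 52.4 ± 4.91 in AOS10, 55.4 ± 7.64 in B+A0 and 79.7 ± 8.28 in B+A10 (SD, n = 3). Per length, Mertk stood at means of 10.9 FPKM in AOS0 and 18.9 FPKM in B+A10, against a median of 5.66 FPKM for Itgam. Which cells the Mertk reads came from was not tested. Mertk rose by 0.76 on the log2 scale in B+A10 against AOS0 (SE 0.13, adjusted p = 0.0178, edgeR). That call did not hold without replicate 1 or 3 of AOS0 (adjusted p = 0.0975 and 0.0895, edgeR) or replicate 1 of B+A10 (0.0796), nor in a fit of the 2 groups alone (0.0689). It was the 1 gene of the 44 that passed in that comparison.

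None of 7 tested complement genes other than C1q and none of 3 tested inflammatory cytokine and mediator genes passed in B+A0 against AOS0 by edgeR. Cfp, which encodes properdin, differed by -0.74 on the log2 scale (SE 0.32, adjusted p = 0.198, edgeR) and C3, the central complement protein, by -0.39 (SE 0.27, adjusted p = 0.435, edgeR). Nos2, the inducible nitric oxide synthase, which intestinal epithelium also makes, had 0.30 (SE 0.27, adjusted p = 0.567, edgeR). Tnf, an inflammatory cytokine, had -0.32 (SE 0.42, adjusted p = 0.707, edgeR). In AOS10 against AOS0, in both comparisons of B+A10 with B+A0 and AOS10, and in the interaction, none of the 44 genes passed by edgeR.

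Several lists of genes of other leukocytes held genes that fell in B+A0 against AOS0, as 1.94% of all genes did, while the B and plasma cell list and the neutrophil list held none. All 5 pan-leukocyte genes had a log2 fold change below 0 and 4 of them fell (Laptm5, Coro1a, Cd52 and Cd53). The genes that fell also included 6 of the 11 T and NK cell genes tested, all 5 mast cell genes tested, and Itgax, 1 of the 2 dendritic cell genes tested. Itgax, an integrin chain of dendritic cells and of many intestinal macrophages, was at 3.65 ± 0.384 CPM in AOS0 and 0.754 ± 0.194 CPM in B+A0 (SD, n = 3), and fell by 2.26 on the log2 scale (SE 0.33, adjusted p = 0.00794, edgeR). Cd53, a tetraspanin of leukocytes, was at 2.64 ± 0.185 CPM in AOS0 and 0.691 ± 0.0240 CPM in B+A0 (SD, n = 3) and fell by 1.92 on the log2 scale (SE 0.24, adjusted p = 0.00429, edgeR). Of the B and plasma cell genes 3 were tested and none passed. In B+A0 against AOS0, 2 of the 3 were below 0 and 1 was above. Jchain had -1.71 on the log2 scale (SE 0.49, adjusted p = 0.0677, edgeR). Cd79b, a part of the B cell receptor, had 0.57 (adjusted p = 0.419, edgeR). The 6 genes of that list summed to 5.38 to 15.8 CPM in AOS0 and 2.98 to 6.96 CPM in B+A0, which overlapped. Itgax and Cd53 passed under each of the 19 alternatives to which they were put. The counts of falls moved with single libraries. Of the pan-leukocyte genes 1 fell with replicate 1 or 3 of AOS0 left out, or replicate 2 or 3 of B+A0, and 2 did so with any AOS10 library left out. No T and NK gene fell with replicate 1 or 3 of AOS0 or replicate 3 of B+A0 left out, 1 did with replicate 2 of B+A0 left out, and 10 did with its replicate 1 left out. Of the mast cell genes 2 fell with replicate 3 of AOS0 or replicate 2 of B+A0 left out, and 1 with replicate 3 of B+A0 left out. In B+A10 against AOS0, 1 of the 5 pan-leukocyte genes fell, Cd53, with a log2 fold change of -1.17 and an adjusted p of 0.0279 (edgeR), a call lost when any AOS0 library, replicate 3 of AOS10, replicate 2 of B+A0 or replicate 1 of B+A10 was left out, while 2 genes fell with replicate 2 of B+A10 left out.

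Genes of cells other than leukocytes also differed between these libraries without passing the threshold. All 4 tested fibroblast genes had a log2 fold change below 0 (median -1.14), among them Col1a2, a collagen chain (-2.20, adjusted p = 0.0881, edgeR), and Dcn, a matrix proteoglycan (-1.28, adjusted p = 0.115, edgeR). The 5 fibroblast genes summed to 4.60 to 7.40 CPM in AOS0 and 1.97 to 4.52 CPM in B+A0. Pecam1, an adhesion molecule of endothelium, had -1.70 (adjusted p = 0.0661, edgeR), and the 4 endothelial genes summed to medians of 1.51 CPM in AOS0 and 0.667 CPM in B+A0, without overlap. All 7 Paneth cell genes had a log2 fold change above 0 (median 0.59), with sums of 3300 to 5025 CPM in AOS0 and 5853 to 7287 CPM in B+A0. All 6 enterocyte genes were below 0 (median -0.35), with overlapping sums. The part of these shifts in the Tyrobp result was not tested.

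The sum of the 10 marker genes was mostly Itgam and did not separate B+A0 from AOS0. It ranged from 30.7 to 41.9 CPM in AOS0, 27.4 to 31.0 in AOS10, 30.6 to 37.2 in B+A0 and 28.2 to 33.6 in B+A10. B+A0 was the lowest group only without Lyz2, whose reads may be shared with Lyz1, and Itgam. Itgam has the most reads and was not lower in B+A0 than in AOS0 (0.16 on the log2 scale). The 8 marker genes other than Itgam and Lyz2 summed to 4.53 to 7.17 CPM in AOS0, 3.61 to 4.05 in AOS10, 1.73 to 2.43 in B+A0 and 3.37 to 6.31 in B+A10. The mean of this sum was 5.56 CPM in AOS0 and 2.03 in B+A0. Tyrobp, the gene already called, made up 2.15 and 0.427 CPM of it. No share over all genes was counted for such sums. The 5 pan-leukocyte genes summed to 36.0 to 62.6 CPM in AOS0, 34.6 to 42.0 in AOS10, 9.76 to 24.9 in B+A0 and 24.1 to 53.4 in B+A10. In B+A10 the highest value of the marker sum, of the pan-leukocyte sum (53.4 CPM) and of the T and NK sum (246.1 CPM) was in replicate 2, the library with 49 Tyrobp reads. The T and NK sum of the other B+A10 libraries was 87.1 and 123.3 CPM. Because NK cells also express Tyrobp, the part of these cells in its level was not tested. Neutrophils share Tyrobp, Itgam and Lyz2, and their part in these levels was not tested. Mpo and Ngp, both on the neutrophil list, had 1 read each in the 12 libraries together. The 6 of 11 listed neutrophil genes in the table summed to 0.918 to 3.30 CPM in AOS0 and 2.44 to 4.24 CPM in B+A0. Most of this sum was Ltf, which encodes lactoferrin, with 71 of 92.89 reads in AOS0 and 141 of 159.68 in B+A0. Ltf, the 1 neutrophil gene tested, did not pass (0.83 on the log2 scale, adjusted p = 0.348, edgeR).

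**Figure D5:**
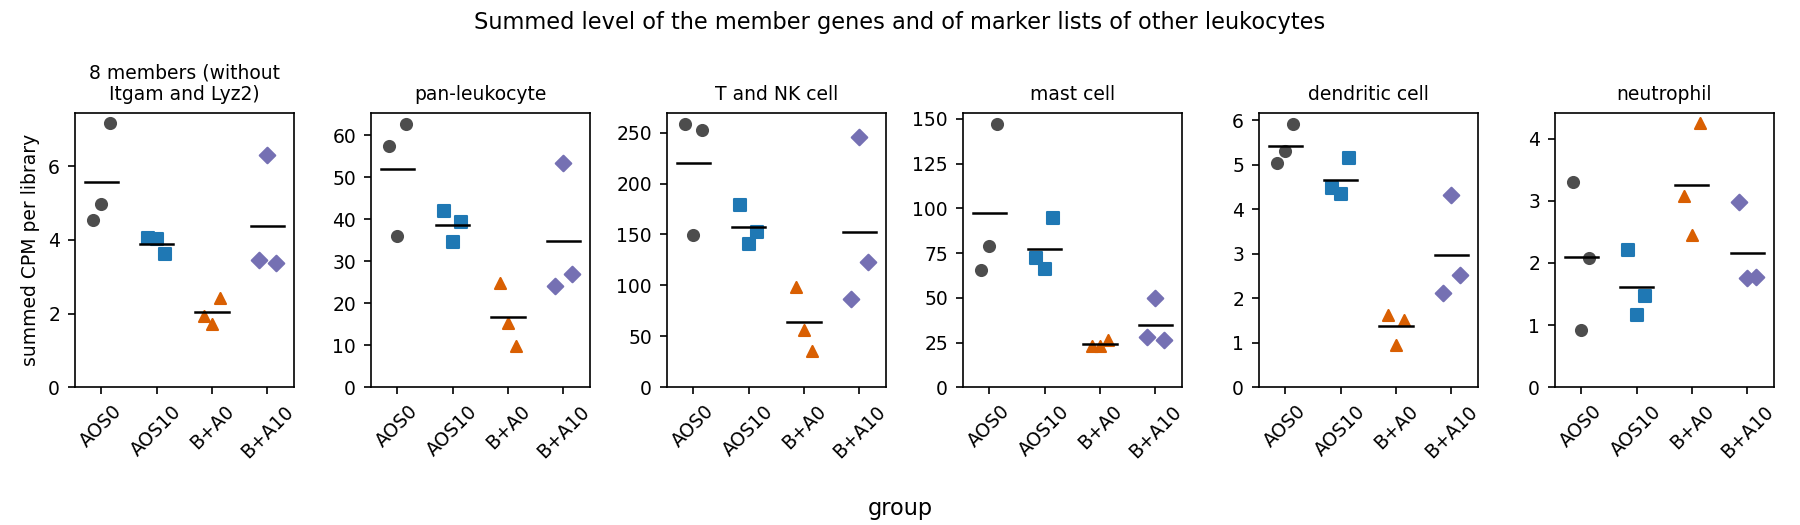
Summed CPM per library of 8 of the 10 genes (without Itgam and Lyz2) and of 5 marker lists of other leukocytes, by group, with 1 point per library and a horizontal line at the group mean; each panel has its own scale starting at 0. The B+A0 libraries are the lowest in the first panel, at 1.73 to 2.43 CPM, and B+A10 replicate 2 is the highest of its group in each panel except that of the neutrophil genes.

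The 5 tested genes did not vary as 1 group across the 12 libraries. As a description, over libraries that share their depth and their groups, log2 CPM of Tyrobp had a Pearson correlation of 0.86 with the pan-leukocyte gene Laptm5, 0.74 with Lyz2 and 0.60 with Csf1r. Its correlation was 0.23 with Cd68 and -0.50 with Itgam. Itgam had -0.46 with Laptm5 and Cd68 had 0.16 with Laptm5. With Laptm5, Csf1r had 0.74 and Lyz2 had 0.67.

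The genes whose pattern was most like the mean of the 4 tested genes other than Lyz2, by Pearson correlation of log2 CPM over the 12 libraries, were Rasgrp2 (0.85), Fgr (0.84), Hoxb7 (0.84), Plekho1 (0.84), Foxo3 (0.83), Hoxb8 (0.83), Txk (0.82) and Hoxb9 (0.81). Of these 8, Hoxb7, Hoxb8 and Hoxb9 fell in B+A0 against AOS0, as did 1.94% of all genes tested. Their log2 fold changes were -3.11, -4.15 and -3.28 (adjusted p = 0.0281, 0.0444 and 0.0275, edgeR). The 8 were picked over the same libraries, so these falls are no independent support for the marker genes. The mean also joins genes that varied apart, as Tyrobp and Itgam had a correlation of -0.50. The mean was highest in AOS0 replicate 3 and in B+A10 replicate 2.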

How the data were processed

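Total RNA from mouse small intestine was sequenced in 12 libraries. The authors deposited estimated counts per gene, called read counts per the file headers and not normalized. In each library 8.90% to 9.33% of them had a fractional part above 1e-06; rounding to whole numbers preceded the tests. The deposited expression values have no unit in the header and were taken as FPKM, because count divided by value tracked each library's total to within 0.238% (5071 genes with more than 500 counts). The submitters' processing notes name the build mm10. The sources used here do not give the aligner, counter, strand setting or read length. Group averages in the table were not used.

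The 10 genes and the gene lists were chosen with earlier results of these data known. Genes with enough counts were kept (filterByExpr, 12329) and scaled by TMM (factors 0.969 to 1.05), and 1 model was fitted to all 12 libraries with edgeR 4.0.16 in R 4.3.3 (quasi-likelihood test, Benjamini-Hochberg over all genes tested, threshold 0.05). Each SE is the absolute log2 fold change divided by the square root of F. Outside the 10 genes, the text names Lyz1, up to 4 called genes per list, otherwise the 2 with the smallest p in B+A0 against AOS0, and the 8 genes most like the tested markers (log2 CPM, prior count 2); exceptions are stated. Not every gene this rule names is reported. Within groups, the chi-square between libraries was 8.28 to 35.4 times its degrees of freedom, so no library was a duplicate of another. The test was tried on simulated counts. Alternatives were DESeq2 1.42.0, DESeq2-type size factors, no filter, at least 1 CPM in 3 libraries, only the groups compared, a replicate block, limma 3.58.1 on log2(FPKM + 1), leaving out each library, and Lyz1 and Lyz2 summed. Gene coordinates are from RefSeq GRCm38, and strands, overlapping genes and the Lyz1 and Lyz2 stretch are from GENCODE GRCm38. Figures were drawn with matplotlib 3.10.9.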

Additional observations from a re-analysis of the deposited data

Results flagged for a closer look

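For Cd68, the lysosomal glycoprotein, libraries with and without busulfan did not overlap at either AOS level, with opposite signs, but neither comparison passed (adjusted p = 0.316 for B+A0 against AOS0 and 0.365 for B+A10 against AOS10, edgeR). All B+A0 libraries were below all AOS0 libraries (0.974 ± 0.169 against 1.44 ± 0.241 CPM), and all B+A10 libraries were above all AOS10 libraries (1.39 ± 0.216 against 0.763 ± 0.289 CPM; SD, n = 3). The interaction was 1.40 on the log2 scale and did not pass (adjusted p = 0.522, edgeR; 0.374 to 0.903 over the alternatives). Groups without overlap in opposite directions occurred in 53 of 12329 tested genes (0.430%). The counts behind each value were 7 to 27 reads.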

How the results depend on the processing

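Of the 10 genes, 1 passed in B+A0 against AOS0, and 0 to 1 when 1 library was left out; 4 of the 12 libraries removed the call. In B+A10 against B+A0 none passed, and 1 did by DESeq2. The replicate numbers did not pair the libraries (1 of 18 same-number pairs had correlated deviations over 0.1, against 11 of 36 other pairs); with the replicate block, Tyrobp was -2.32 (adjusted p = 0.0297, edgeR) and 193 genes passed in place of 449. All-gene calls in B+A0 against AOS0 were 995 by DESeq2, 241 with only those groups, and 21 to 1099 when 1 library was left out.

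With Lyz1 and Lyz2 summed, the log2 fold change of Lyz2 reversed, by construction, to 0.58 in B+A0 against AOS0, -0.21 in B+A10 against B+A0, 0.38 in B+A10 against AOS0 and -0.13 in the interaction. In B+A10 against AOS10, Lyz2 was -0.017 with the replicate block and -0.020 by limma; the cause was not tested. Leaving out 1 library spread log2 fold changes across 0, with fewer samples: in B+A10 against AOS0, Lyz2 -1.02 to 0.0019, Cd68 -0.17 to 0.10, Csf1r -0.83 to 0.15 and Tyrobp -0.87 to 0.021; in B+A10 against AOS10, Lyz2 -0.31 to 0.28, Csf1r -0.55 to 0.44 and Tyrobp -0.67 to 0.22; and Tnf in B+A0 against AOS0, -0.61 to 0.069. None of these was called. Low counts limit C1qa, C1qb, C1qc, Cx3cr1 and Adgre1 to description.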
